A study of Mus musculus with 16 samples.

Results

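The 10 genes described here encode the actin, troponin and tropomyosin subunits of the cardiac thin filament, together with the proteins that sit at its pointed end. They are the sarcomeric actins Actc1 (cardiac) and Acta1 (skeletal), the cardiac troponin subunits Tnnt2, Tnni3 and Tnnc1, the tropomyosins Tpm1 and Tpm2, the tropomodulins Tmod1 and Tmod4, and the leiomodin Lmod2. They were chosen by name, and each had 1 row in the deposited table of 11811 genes. All 10 had a mean of at least 0.5 FPKM, the unit of the deposited levels (fragments of a transcript, divided by its length and by the fragments of the library), a minimum that 11544 genes met. RNA of the left ventricle (LV) was sequenced from 8 TGAC8 and 8 WT mice, with 1 library per mouse. TGAC8 mice carry a cDNA of human ADCY8, the calcium-stimulated adenylyl cyclase type VIII, and the murine α-myosin heavy chain promoter directs its expression to cardiomyocytes. WT mice lack the transgene. All were male C57BL/6 mice of 3 months, and the tissue was the LV free wall without the septum. Since whole tissue was sequenced, fewer cells of a type and less RNA per cell cannot be told apart in any value given here.

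In the thin filament, actin monomers polymerize into a double helix, and tropomyosin lies along it end to end. Troponin T anchors the troponin complex to tropomyosin, troponin I holds the filament in its blocked state, and troponin C binds calcium and releases that block, which lets myosin heads attach. Tropomodulins cap the pointed end and stop filament growth there, whereas leiomodins nucleate and lengthen filaments at the same end. The adult ventricle uses mainly the cardiac isoforms, whereas α-skeletal actin is prominent in the developing heart and is expressed again when the rodent ventricle is overloaded.

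The levels of 2 sarcomeric actins can be compared only if reads of one are not assigned to the other, and the coding sequences of Acta1 and Actc1 were therefore set side by side. Both were 1131 bases long without the stop codon, they differed at 155 bases (86.3% identical), and windows of the read length, 75 bases, differed at 3 to 17 bases with a median of 10. No window had 2 or fewer differences. The first 75 coding bases are shown as an example (mm10, GENCODE vM21 models, Acta1 at chr8:123891769-123894751 and Actc1 at chr2:114047282-114053548, both on the minus strand), and capitals mark the 12 bases that differ:
Acta1: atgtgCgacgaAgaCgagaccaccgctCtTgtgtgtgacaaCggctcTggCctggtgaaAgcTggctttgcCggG
Actc1: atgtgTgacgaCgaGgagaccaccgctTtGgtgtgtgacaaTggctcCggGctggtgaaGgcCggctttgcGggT
Over whole transcripts, 6 of the 1372 windows of Acta1 (0.437%) were also found in Actb or Gm47692, and 0 of the 1399 windows of Actc1 were found in another gene. The other members shared none, except Tmod1, in which 77 of 3084 windows (2.50%) recurred elsewhere. Tnni3 overlaps Dnaaf3 on the same strand, and on the opposite strand Tnnc1 overlaps Nisch, Tmod1 Tstd2, Acta1 Gm20388 and Actc1 A530058N18Rik. The kit marks strand, but no source used here says whether the counting used it, so these 5 values may hold reads of their neighbours. The deposited loci of Tmod4 and Tpm2 begin, and that of Tmod1 ends, well outside the GENCODE genes (chr3:95111042-95129208, chr4:43496139-43523583 and chr4:46038940-46172403), and which transcripts were counted there is not stated in the sources used here.

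The promoters of Acta1 and Tmod4, whose levels differed most between the genotypes, are shown beside that of Actc1, the main actin of the ventricle. Each is the 250 bases before the start given by RefSeq on GRCm38.p6, the patched mm10 assembly, and is written 5′ to 3′ on the gene's own strand. Acta1 lies at chr8:123894776-123895025 (minus strand), Actc1 at chr2:114052876-114053125 (minus strand) and Tmod4 at chr3:95124264-95124513 (plus strand). Capitals mark the CArG box (the motif bound by serum response factor, SRF), TATAAA (a core promoter element) and CATTCC (the core of the MCAT motif, to which TEAD factors bind):
Acta1: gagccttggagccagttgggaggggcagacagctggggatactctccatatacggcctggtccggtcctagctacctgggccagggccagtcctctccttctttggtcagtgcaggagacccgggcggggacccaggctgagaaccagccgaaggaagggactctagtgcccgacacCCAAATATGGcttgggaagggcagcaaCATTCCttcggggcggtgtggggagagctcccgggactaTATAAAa
Actc1: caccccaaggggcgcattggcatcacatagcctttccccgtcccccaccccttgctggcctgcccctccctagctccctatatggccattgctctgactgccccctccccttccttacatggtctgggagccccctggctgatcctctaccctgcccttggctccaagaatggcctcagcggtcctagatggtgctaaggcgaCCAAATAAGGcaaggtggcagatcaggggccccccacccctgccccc
Tmod4: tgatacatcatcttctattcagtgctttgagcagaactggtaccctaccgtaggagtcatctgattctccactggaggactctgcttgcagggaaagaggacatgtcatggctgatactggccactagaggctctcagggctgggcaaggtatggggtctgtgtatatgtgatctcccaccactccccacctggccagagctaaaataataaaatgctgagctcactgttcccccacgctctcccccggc
Acta1 held a CArG box (CCAAATATGG) starting 73 bases before the start, CATTCC 46 bases before it and TATAAA 7 bases before it. Distances are from the RefSeq start, and the GENCODE genes start elsewhere (Acta1 at chr8:123894751, Actc1 at chr2:114053548 and Tmod4 at chr3:95124476), which would shift each distance. Actc1 held a CArG box (CCAAATAAGG) 47 bases before its start, and Tmod4 held none of the 3 motifs. Both strands were searched, and the CArG consensus, CC and GG around 6 bases of A or T, reads the same on either. All 10 members matched a RefSeq promoter (11 promoters in all), and 2 of the 10 genes held a CArG box, against 1.47% of 32851 mouse promoters of the same length. CATTCC was found in 5 members (Acta1, Tmod1, Tnnc1, Tnnt2 and Tpm1) and in 12.6% of all promoters, TATAAA in Acta1 and in 12.4%. Of motifs tied to cAMP signalling, the short CREB motif TGACG was found in Lmod2 and Tpm1 and in 17.8% of all promoters, and the full site TGACGTCA in 0 members and in 1.55%. The E-box CANNTG was found in 8 members and in 66.2% of all promoters. A match describes the letters only, and binding was not measured.

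The transgene row, ADCY8HS, averaged 503.4 FPKM in TGAC8 and 0.0431 FPKM in WT. Summed FPKM ran from 314283 to 374087 in TGAC8 and from 356854 to 407506 in WT, and reads per gene are not known. The defining transcripts of ventricular cardiomyocytes were abundant in all 16 libraries, and their summed level ran from 16365 to 18595 FPKM in TGAC8 and from 20475 to 22066 FPKM in WT; Myl2, Myl3, Ckm and Mb were lower in TGAC8, Ryr2 was higher, and 4 of 9 did not pass the test. The atrial light chain Myl7 was above 10 FPKM in TGAC8 libraries 1 and 7 and WT libraries 3, 6 and 7 (16.4 to 34.5 FPKM) and at most 5.79 FPKM in the other 11. Across all genes tested, 20.9% were higher and 4.65% lower in TGAC8 (limma with Benjamini-Hochberg adjustment, adjusted p under 0.05), and the median log2 fold change was 0.12. Geometric scaling, which divides a library by the median of its ratios to the gene-wise geometric means, moved that median to 0.0075. Each fold change below is a difference in mean log2(FPKM + 0.1), TGAC8 minus WT, on the deposited scale. For the members and the listed isoform, assembly and SRF axis genes, the value after geometric scaling is also given where the call differs. For other cell type markers and the genes ranked by likeness to Acta1, only the deposited scale is given.

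Of the 10 members, 5 fell in TGAC8 vs WT (Acta1, Tnnc1, Tpm1, Tmod4 and Lmod2), against 4.65% of all genes lower, 1 rose (Tmod1), against 20.9% of all genes higher, and 4 did not pass the test (Actc1, Tnnt2, Tnni3 and Tpm2). The median log2 fold change of the members was -0.18, against 0.12 for all genes tested. It was -0.10 for the 9 ventricular cardiomyocyte markers, of which 4 were lower and 1 higher in TGAC8. In 3 members (Tnnc1, Tpm1 and Tmod4) every TGAC8 library lay below every WT library in FPKM, which held for 1.13% of all genes tested. As a percent of all FPKM in the library, the genotypes overlapped in Tnnc1 (0.323 to 0.404% in TGAC8, 0.385 to 0.448% in WT). Tpm1 also overlapped on that scale (1.07 to 1.29%, 1.18 to 1.41%), as did Lmod2 (0.0682 to 0.0949%, 0.0713 to 0.0940%). Tmod4 stayed below in every TGAC8 library, and Tmod1 lay above in every one (0.0195 to 0.0252%, 0.0157 to 0.0184%). On the geometric scale 7 members were lower, Tnnt2 and Tnni3 being added, against 10.8% of all genes, and 0 were higher, against 9.75% (20.5% in either direction). Summed, the 10 genes made up 4.71 to 5.69% of all FPKM in TGAC8 and 4.604 to 5.53% in WT, ranges that overlapped.

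**Figure D1:**
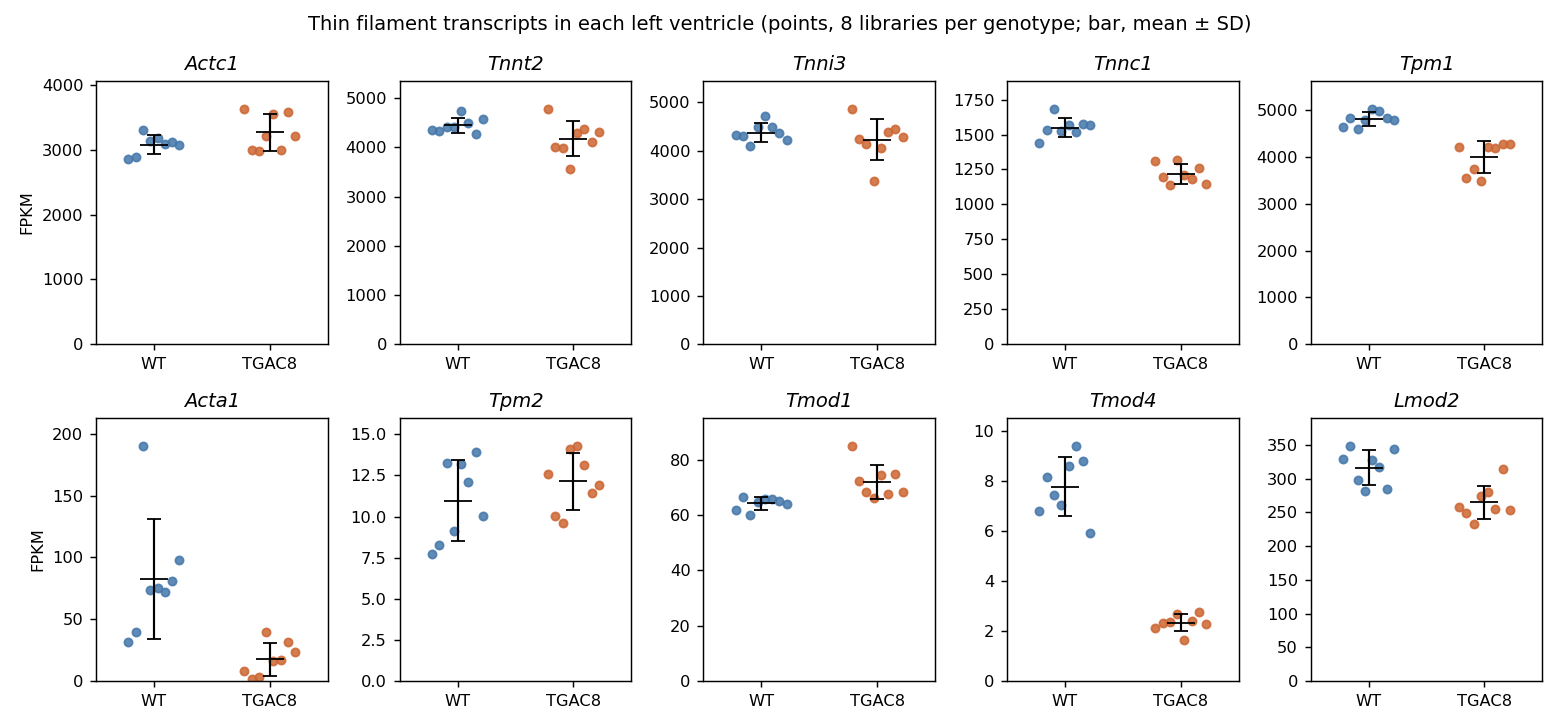
FPKM of the 10 thin filament genes (y axis, each panel with its own scale from 0) in the 8 WT and 8 TGAC8 libraries, with points for libraries and bars for mean ± SD. Tnnc1, Tpm1 and Tmod4 did not overlap between genotypes, whereas Acta1 spread from 1.84 to 39.9 FPKM in TGAC8 and from 31.2 to 190.2 FPKM in WT.

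Actc1, which encodes cardiac α-actin, the actin of the adult heart, was abundant in both genotypes and did not pass the test on the deposited scale. Its level ran from 2977 through a median of 3208 to 3624 FPKM in TGAC8, and from 2854 through 3099 to 3297 FPKM in WT. The ranges overlapped, and TGAC8 libraries 1, 5 and 7 lay above all WT libraries. The log2 fold change was 0.08 (SE 0.06, 95% confidence interval -0.04 to 0.21, limma adjusted p = 0.317). Its sign depended on the scale, with -0.03 after geometric scaling (adjusted p = 0.663) and 0.35 after quantile normalization (adjusted p = 0.00397).

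Acta1, the gene of skeletal α-actin, fell the most of the 10 in RNA. For its protein the paper reports the opposite direction, an increase in TGAC8 by Western blot. Protein was not measured in these libraries. The 8 TGAC8 libraries held, in their numbered order, 7.79, 1.84, 3.16, 39.9, 15.9, 17.1, 31.4 and 23.2 FPKM. The 8 WT libraries held 31.2, 39.5, 190.2, 73.5, 75.5, 72.3, 80.7 and 98.1 FPKM. TGAC8 libraries 4 and 7 reached the range of WT libraries 1 and 2, the other 6 TGAC8 libraries lay below every WT library, and WT library 3 stood far above the rest. The mean was 17.5 ± 13.5 FPKM in TGAC8 (SD, n = 8) and 82.6 ± 48.6 FPKM in WT (SD, n = 8), 4.71 times as high in WT. The log2 fold change was -2.60 (SE 0.56, 95% confidence interval -3.78 to -1.43, limma adjusted p = 0.00253). It ranged from -2.85 to -2.23 when each library was left out in turn, and it was -2.43 (adjusted p = 0.0367) without the 5 libraries with Myl7 above 10 FPKM. In the library with the highest level in each genotype, Myl7 was at 0 FPKM (TGAC8 library 4) and at 16.4 FPKM (WT library 3). Acta1 was also the most variable member, with a coefficient of variation of 77.0% in TGAC8 and 58.9% in WT, and the highest library was 21.7 times the lowest in TGAC8 and 6.09 times in WT.

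The level of Acta1 was compared with that of Actc1 within each genotype, since both actins are read in the same libraries. In WT, Pearson's r of the log2 levels was 0.93 (permutation p = 0.00367, adjusted p = 0.00734 over 2 relations, n = 8), and Spearman's rho was 0.69 (permutation p = 0.0694). Without the 2 libraries farthest from the median of Actc1, r was 0.78 (permutation p = 0.128), so with 6 libraries left the relation no longer passed. In TGAC8, r was 0.44 (permutation p = 0.280) and rho 0.38 (permutation p = 0.360). Both genes are scaled by the same library total, which the points of each relation share.

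Of the troponin subunits, only the calcium sensor fell on the deposited scale. Tnnc1, which encodes cardiac and slow skeletal troponin C, ran from 1137 through a median of 1201 to 1315 FPKM in TGAC8, and from 1440 through 1549 to 1681 FPKM in WT. Every TGAC8 library lay below every WT library. The mean was 1219 ± 69.8 FPKM against 1550 ± 68.0 FPKM (SD, n = 8 each), a log2 fold change of -0.35 (SE 0.05, limma adjusted p = 3.08e-05). After quantile normalization the log2 fold change was -0.03 (adjusted p = 0.810).

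Tnnt2, the tropomyosin-binding troponin T of the heart, ran from 3554 through 4197 to 4777 FPKM in TGAC8 and from 4284 through 4415 to 4748 FPKM in WT. In TGAC8, 4 of 8 libraries lay below the lowest WT library, and TGAC8 library 1 lay above the highest. The log2 fold change was -0.10 (SE 0.06, 95% confidence interval -0.22 to 0.03, limma adjusted p = 0.232). After geometric scaling it was -0.21 (adjusted p = 0.00250), and after quantile normalization 0.16, so neither the call nor the sign was fixed.

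Tnni3, the inhibitory troponin I of the adult heart, ran from 3377 through 4266 to 4860 FPKM in TGAC8 and from 4098 through 4348 to 4720 FPKM in WT. The ranges overlapped, with TGAC8 library 4 the lowest and TGAC8 library 1 the highest of all 16. The log2 fold change was -0.06 (SE 0.07, 95% confidence interval -0.19 to 0.08, limma adjusted p = 0.565). After geometric scaling it was -0.17 (adjusted p = 0.0373), and after quantile normalization 0.24.

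Of the tropomyosins, the main cardiac gene fell. Tpm1, which encodes α-tropomyosin, ran from 3485 through a median of 4198 to 4275 FPKM in TGAC8 and from 4585 through 4806 to 5016 FPKM in WT. No TGAC8 library reached the lowest WT library, and TGAC8 libraries 2, 3 and 4 were set apart below the other 5. The mean was 3990 ± 343 FPKM against 4806 ± 150 FPKM (SD, n = 8 each), a log2 fold change of -0.27 (SE 0.06, limma adjusted p = 0.00260). After quantile normalization the log2 fold change was -0.06 (adjusted p = 0.638).

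Tpm2, which encodes β-tropomyosin, an isoform found in skeletal muscle and the fetal heart among other tissues, was a minor transcript in every library. It ran from 9.58 through 12.3 to 14.3 FPKM in TGAC8 and from 7.70 through 11.1 to 13.95 FPKM in WT. The ranges overlapped almost fully, and WT libraries 1 and 2 were the lowest of their genotype, as they were for Acta1. The log2 fold change was 0.17 (SE 0.13, 95% confidence interval -0.10 to 0.44, limma adjusted p = 0.364).

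At the pointed end, the cap of the cardiac filament and the factor that lengthens it differed in opposite directions on the deposited scale. Tmod1, the tropomodulin of heart and other tissues, ran from 66.2 through 70.3 to 85.02 FPKM in TGAC8 and from 59.99 through 65.1 to 66.5 FPKM in WT. All TGAC8 libraries except library 4 lay above the highest WT library, and TGAC8 library 1 stood above the rest. The mean was 72.1 ± 6.16 FPKM against 64.2 ± 2.25 FPKM (SD, n = 8 each), a log2 fold change of 0.16 (SE 0.05, limma adjusted p = 0.0188). The call was lost after geometric scaling (0.05, adjusted p = 0.457) and without the 5 libraries with Myl7 above 10 FPKM (0.11, adjusted p = 0.137), it was missed after quantile normalization (0.12, adjusted p = 0.0508), and the part of those libraries in the difference was not tested further.

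Lmod2, the leiomodin of cardiac muscle, ran from 232.5 through a median of 256.6 to 315.2 FPKM in TGAC8 and from 282.4 through 322.7 to 348.8 FPKM in WT. TGAC8 library 7 alone reached the range of WT, and the other 7 lay below it. The mean was 264.9 ± 25.2 FPKM against 316.6 ± 25.6 FPKM (SD, n = 8 each), a log2 fold change of -0.26 (SE 0.06, limma adjusted p = 0.00568). After quantile normalization it was -0.17 (adjusted p = 0.0709).

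Tmod4, the tropomodulin named for skeletal muscle, was the least abundant of the 10 and had the smallest adjusted p. It held 2.13, 2.33, 2.35, 2.66, 1.65, 2.40, 2.76 and 2.29 FPKM in the 8 TGAC8 libraries in their numbered order. The 8 WT libraries held 6.78, 8.15, 7.44, 7.03, 8.60, 9.39, 8.79 and 5.93 FPKM. The genotypes were far apart, with every TGAC8 library less abundant than the lowest WT library, number 8. The mean was 2.32 ± 0.34 FPKM in TGAC8 (SD, n = 8) and 7.76 ± 1.17 FPKM in WT (SD, n = 8), 3.34 times as high in WT. The log2 fold change was -1.70 (SE 0.10, limma adjusted p = 3.58e-09), and it ranged from -1.75 to -1.63 when each library was left out in turn.

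Markers of skeletal muscle fibres are given beside Acta1 and Tmod4, since both are skeletal muscle genes. Of 16 markers listed, 4 had a row in the deposited table, and defining transcripts such as Myh1, Myh2, Myh4, Mylpf and Actn3 had no row under those names. Among the 4, Casq1 (calsequestrin of skeletal muscle) and Cacna1s (its calcium channel) were lower in TGAC8, with log2 fold changes of -1.06 (limma adjusted p = 0.00849) and -0.51 (adjusted p = 0.000519), Tnni2 was higher, and Mybpc2 did not pass (-0.31, adjusted p = 0.110). Their summed level ran from 5.54 to 7.64 FPKM in TGAC8 and from 5.04 to 8.71 FPKM in WT, and its part in the differences was not tested.

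**Figure D2:**
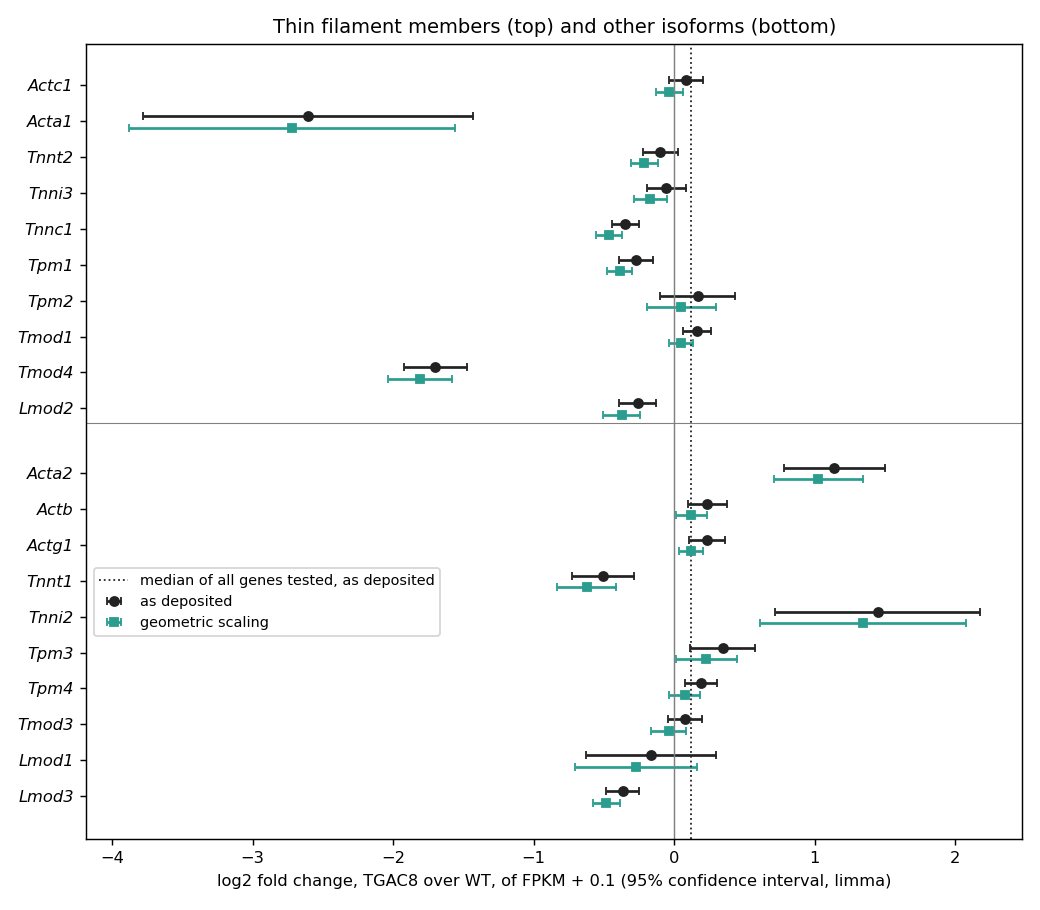
Log2 fold change of FPKM + 0.1, TGAC8 over WT (x axis), with its 95% confidence interval from limma, for the 10 members (upper rows) and 10 further isoforms of the same families (lower rows), on the deposited scale (black circles) and after geometric scaling (green squares). The dotted line is the median of all genes tested, 0.12; Acta1 at -2.60 and Tmod4 at -1.70 lie far to the left, whereas Actc1, Tmod1 and Tpm2 lie within 0.1 of that line.

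FPKM is per length, so the members were ordered by it within a library. Since the transcripts counted are not known for all members and some values may hold reads of neighbouring genes, close places are not certain. In WT the order of mean FPKM was Tpm1, Tnnt2, Tnni3, Actc1, Tnnc1, Lmod2, Acta1, Tmod1, Tpm2 and Tmod4. In TGAC8 it was Tnni3, Tnnt2, Tpm1, Actc1, Tnnc1, Lmod2, Tmod1, Acta1, Tpm2 and Tmod4. Neighbours in this order were not always apart, since Tnnt2 was above Tnni3 in 6 of 8 WT libraries, Tnni3 above Tnnt2 in 5 of 8 TGAC8 libraries, Acta1 above Tmod1 in 6 of 8 WT libraries and Acta1 above Tpm2 in 5 of 8 TGAC8 libraries. Tpm1 was above Tnnt2 in 8 of 8 WT libraries and in 1 of 8 TGAC8 libraries. In ranks among all genes, Tnni3 stood between places 9 and 17 in TGAC8 and Acta1 between places 767 and 8312, against 223 to 926 in WT.

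A share of isoforms within a library is unchanged by any factor that multiplies the whole library, as in geometric scaling, though not by quantile normalization, and 6 such shares and ratios were compared by 2-sided exact permutation tests (Benjamini-Hochberg adjusted over the 6, smallest possible p 0.000155). Acta1 made up 0.5265 ± 0.405% of sarcomeric actin FPKM (Acta1 plus Actc1) in TGAC8 and 2.55 ± 1.34% in WT (SD, n = 8 each), so cardiac actin held nearly all of the pool in both. The share ran from 0.0616 to 1.23% in TGAC8 and from 1.08 to 5.46% in WT. TGAC8 library 4 alone entered the range of WT. The difference was -2.02 percentage points (exact permutation p = 0.000311, adjusted p = 0.000622).

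Tmod4 made up 3.15 ± 0.57% of tropomodulin FPKM (Tmod1 plus Tmod4) in TGAC8 and 10.8 ± 1.31% in WT (SD, n = 8 each). The share ran from 2.16 to 3.87% in TGAC8 and from 8.48 to 12.5% in WT, and the ranges did not overlap. The difference was -7.61 percentage points (exact permutation p = 0.000155, adjusted p = 0.000466), and the summed level of the pair was 74.4 ± 6.04 FPKM in TGAC8 and 72.0 ± 3.03 FPKM in WT. Tmod3, which is not in this denominator, averaged 8.80 FPKM in TGAC8 and 8.34 FPKM in WT. With Tmod3 added to the denominator, the difference was -6.83 percentage points (exact permutation p = 0.000155).

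Of the 3 minor isoforms (Acta1, Tpm2 and Tmod4), only Tpm2 had a larger share in TGAC8. It made up 0.304 ± 0.048% of tropomyosin FPKM (Tpm1 plus Tpm2) in TGAC8 and 0.227 ± 0.0498% in WT (SD, n = 8 each), a difference of 0.0773 percentage points (exact permutation p = 0.00653, adjusted p = 0.00783). The ranges of 0.256 to 0.404% and 0.166 to 0.288% overlapped, and TGAC8 library 4 held the largest share. Tpm2 itself did not pass the test and Tpm1 fell, so the share rose while its numerator was not called. After quantile normalization the difference in share was 0.0184 percentage points (exact permutation p = 0.496), and the call was lost.

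Within troponin, the ratio of Tnni3 to Tnnt2 was 1.01 ± 0.0487 in TGAC8 and 0.983 ± 0.0376 in WT (SD, n = 8 each), and the log2 difference was 0.04 (exact permutation p = 0.203). The ratio of Tnnc1 to Tnnt2 was 0.294 ± 0.0339 against 0.348 ± 0.0179, with a log2 difference of -0.25 (exact permutation p = 0.00218, adjusted p = 0.00326). All TGAC8 libraries except library 4, at 0.370, lay below the lowest WT ratio of 0.330. At the pointed end, the ratio of Lmod2 to Tmod1 ran from 3.04 to 4.21 in TGAC8 (mean 3.69 ± 0.389) and from 4.35 to 5.38 in WT (mean 4.93 ± 0.402), without overlap, and the log2 difference was -0.42 (exact permutation p = 0.000155, adjusted p = 0.000466).

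**Figure D3:**
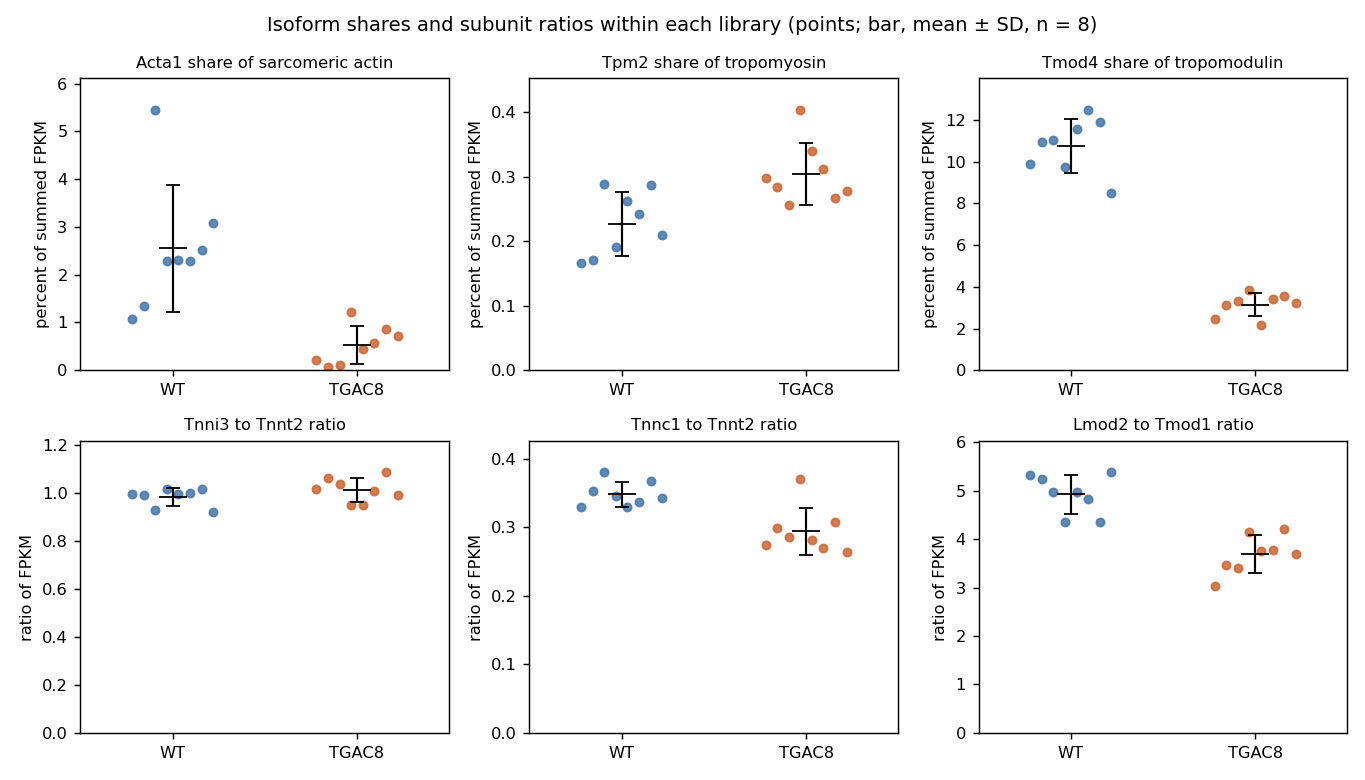
Shares of Acta1, Tpm2 and Tmod4 in summed FPKM (upper panels, percent) and ratios of FPKM between subunits (lower panels) in each library. Points are libraries and bars are mean ± SD, n = 8 per genotype. The Tmod4 share and the Lmod2 to Tmod1 ratio did not overlap between genotypes, and 7 of 8 TGAC8 libraries lay below the lowest WT library in the Acta1 share.

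Variation among libraries was wider in TGAC8 for the abundant members. The coefficients of variation of Actc1, Tnnt2, Tnni3, Tnnc1 and Tpm1 were 3.1 to 4.8% in WT and 5.7 to 9.97% in TGAC8, given as a description with no test. TGAC8 library 4 was the lowest of its genotype in Tnnt2, Tnni3 and Tpm1 and the highest in Acta1 and Tnnc1, and TGAC8 library 1 was the highest in Actc1, Tnnt2, Tnni3 and Tmod1. Over the 16 libraries, with the mean of each genotype removed, Pearson's r of log2 levels was 0.84 between Tnnt2 and Tnni3, 0.76 between Tnnt2 and Tpm1, and 0.69 between Tnni3 and Tpm1. It was 0.63 between Acta1 and Tpm2, and lowest, -0.32, between Tnnt2 and Tmod4. These values are descriptions, and the points share a library total.

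**Figure D4:**
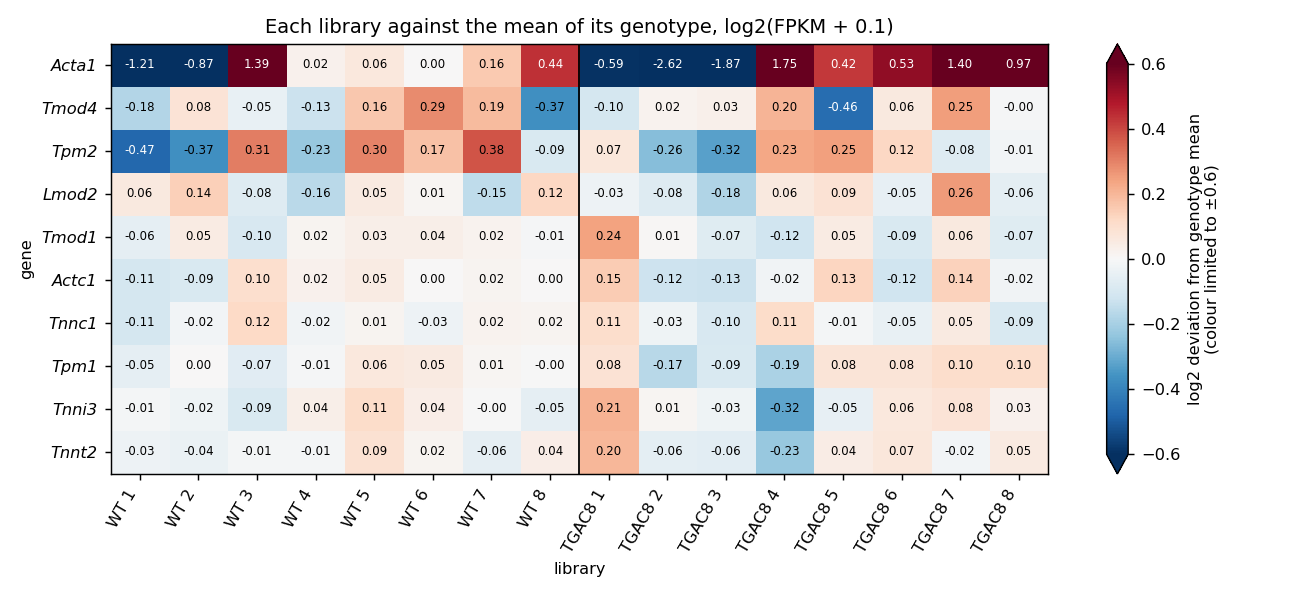
Deviation of each library (x axis) from the mean of its own genotype in log2(FPKM + 0.1), for the 10 members (y axis), with the colour scale limited to 0.6 either way and the value written in each cell. Acta1 deviated most, from -2.62 in TGAC8 library 2 to 1.75 in TGAC8 library 4, while Tnnt2, Tnni3 and Tpm1 were low together in TGAC8 library 4.

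The genes whose levels moved most like Acta1 across libraries were ranked by the same centred correlation over 16 libraries and 10209 genes, as a description only. The highest were Col8a1 (0.87), a collagen chain, Ugp2 (0.87), which makes UDP-glucose for glycogen, Rapgef1 (0.87), Mapkapk2 (0.87), Ttpal (0.86) and Nuak1 (0.85). The lowest were Mir718 (-0.79) and Trappc6a (-0.77). Mir718 was at 0 FPKM in every library except TGAC8 libraries 2 and 3 (98.0 and 58.1 FPKM), so its value rests on those libraries. No other thin filament member was among them. Col8a1, unlike Acta1, was higher in TGAC8 (log2 fold change 0.96, limma adjusted p = 0.000535), and so were Rapgef1 (0.47, adjusted p = 1.36e-05) and Mapkapk2 (0.27, adjusted p = 0.00119). For Rapgef1 transcripts the paper states the opposite direction, a significant decrease in TGAC8.

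Among 15 further isoforms of the same families, 10 had a row in the deposited table, and Actg2, Tnnt3, Tnni1, Tnnc2 and Tmod2 had none under those names. Of the 10, 6 rose, 2 fell and 2 did not pass (of all genes, 20.9% were higher and 4.65% lower). Their median log2 fold change was 0.21, against 0.12 for all genes. The largest actin change was in Acta2, the smooth muscle α-actin, which ran from 43.8 through 62.6 to 98.9 FPKM in TGAC8 and from 24.3 through 28.1 to 40.3 FPKM in WT. The genotypes did not overlap, and the log2 fold change was 1.14 (limma adjusted p = 0.000106). The cytoplasmic actins Actb (0.24, adjusted p = 0.0144) and Actg1 (0.23, adjusted p = 0.0109) and the tropomyosins Tpm3 (0.34, adjusted p = 0.0294) and Tpm4 (0.19, adjusted p = 0.0180) also rose on the deposited scale. The Tpm3 call held in 9 of the 16 fits that left out 1 library, with adjusted p up to 0.0594, and was lost without TGAC8 libraries 1, 5 or 8 and without WT libraries 2, 3, 6 or 8. Acta2, Actb and Actg1 are read from many cell types. Of 6 smooth muscle markers, 2 were higher in TGAC8, Acta2 itself and Smtn (0.21, limma adjusted p = 0.0258), and Myh11, Tagln, Cnn1 and Mylk did not pass. The summed level of the 6 (83.2 to 151 FPKM against 60.2 to 83.6 FPKM in WT) includes Acta2, so it is not separate from the rise of Acta2. Also higher in TGAC8 were 7 of 8 fibroblast markers (summed 172 to 316 FPKM against 140 to 162 FPKM). The same held for 7 of 7 macrophage markers (119 to 180 FPKM against 87.3 to 119 FPKM), and the part of these cells was not tested.

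The 2 troponin isoforms of skeletal muscle that were analysed moved in opposite directions. Tnni2, the fast skeletal troponin I, ran from 1.54 through 2.72 to 2.96 FPKM in TGAC8 and from 0.150 through 0.989 to 2.29 FPKM in WT. The ranges overlapped, and the log2 fold change was 1.45 (limma adjusted p = 0.00546). Tnnt1, the slow skeletal troponin T, fell (log2 fold change -0.51, adjusted p = 0.00179). Lmod3, the leiomodin best known from skeletal muscle, fell by 0.37 (adjusted p = 0.000104) without overlap. Lmod2 also fell, but its ranges overlapped. Tmod3 (0.08, adjusted p = 0.345) and Lmod1 (-0.17, adjusted p = 0.612) did not pass. On the geometric scale only Acta2 and Tnni2 were higher and Tnnt1 and Lmod3 lower, while Actb (0.12, adjusted p = 0.116), Actg1 (0.12, adjusted p = 0.0513), Tpm3 (0.23, adjusted p = 0.134) and Tpm4 (0.07, adjusted p = 0.350) did not pass.

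Of 26 genes for thin filament assembly, capping and turnover, 11 rose, 2 fell and 13 did not pass, with a median log2 fold change of 0.17, against 20.9% of all genes higher and 4.65% lower. After geometric scaling 6 were higher and 3 lower, against 9.75% and 10.8% of all genes. The largest rise was in Klhl40 (0.74, limma adjusted p = 2.13e-06), whose protein stabilizes nebulin and Lmod3 in skeletal muscle. The actin-severing factors Gsn (gelsolin, 0.47, adjusted p = 0.000828), Dstn (destrin, 0.39, adjusted p = 1.28e-05) and Cfl1 (cofilin, 0.29, adjusted p = 0.000859) rose, and the muscle cofilin Cfl2 did not pass on the deposited scale (-0.11, adjusted p = 0.0857) and was lower on the geometric scale (-0.22, adjusted p = 2.98e-05). Fhod3, a formin that cardiac sarcomeres need for actin assembly, rose by 0.36 (adjusted p = 6.87e-06), and the barbed-end cap subunit Capzb by 0.20 (adjusted p = 0.00388), a call lost on the geometric scale (0.09, adjusted p = 0.0925). Nrap, a protein of assembling myofibrils, fell by 0.21 (adjusted p = 0.00650), and Daam1, another formin, fell by 0.18 (adjusted p = 0.0280). The Daam1 call was lost without TGAC8 library 7 (adjusted p = 0.0555) and without WT library 5 (adjusted p = 0.0527).

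SRF and its myocardin-family partners drive the sarcomeric actin promoters through CArG boxes, so their transcripts are given beside those of Acta1 and Actc1. Of 13 genes of this axis analysed, 5 rose, 0 fell and 8 did not pass, against 20.9% of all genes higher and 4.65% lower, with a median log2 fold change of 0.21. Those that rose were Mkl2 (0.30, limma adjusted p = 0.0136), Mef2d (0.27, adjusted p = 0.000643), Smyd1 (0.23, adjusted p = 0.00273), Srf (0.22, adjusted p = 0.0279) and Myocd (0.21, adjusted p = 0.00601). The Srf call was lost without TGAC8 library 5 or WT library 2, with adjusted p up to 0.0578. On the geometric scale 2 were higher (Mef2d and Smyd1) and 4 lower (Hopx, Mef2a, Mef2c and Tead1), against 9.75% and 10.8% of all genes, and Mkl2 (0.19, adjusted p = 0.134), Srf (0.10, adjusted p = 0.260) and Myocd (0.09, adjusted p = 0.163) did not pass, so the direction of the group depended on the scale.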

How the data were processed

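RNA of the LV of 8 TGAC8 and 8 WT mice was sequenced as stranded total RNA with 75-base single-end reads, 1 library per mouse. The authors aligned reads to mm10 plus the human transgene cDNA with TopHat (TopHat2 2.1.1 per the submitters' processing notes, a version on which the paper and the notes differ) and deposited FPKM per gene and library from Cufflinks 2.1.1. The deposited table also holds the authors' Cuffdiff group means in FPKM, log2 fold changes, a test score, and p-values and q-values, and none of these was used. FPKM values could not be turned back into whole reads, so the depth behind each is unknown, and 18 gene names had become dates in the deposited table.

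Here, genes whose mean reached 0.5 FPKM (11544) were kept, and log2(FPKM + 0.1) was compared by limma 3.58.1 (R 4.3.3) with a variance trend, 2-sided, with Benjamini-Hochberg adjustment over all genes and a threshold of 0.05. A fold change on this scale understates that of low genes. Shares and ratios were compared by exact permutation tests (Python 3.11.15, NumPy 2.4.6). On simulated data of TGAC8 against WT with 11544 genes, 38% of genes changed 1.25-fold, 84% of those changed 1.5-fold and 88% of those changed 2-fold were recovered (50 genes each), with 7 false calls. The members, the lists and the tests were chosen with earlier results of these data known. All members were named, with further genes by list and, for likeness to Acta1, the highest and lowest correlations. Alternatives were other pseudocounts (1 and 0.01), filters, scalings, no variance trend, a replicate block and leaving out each library. The check that same-numbered libraries are paired is given with the limits. P-values of the genotype comparisons set the difference between genotypes against the spread between these mice.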

Additional observations from a re-analysis of the deposited data

Results flagged for a closer look

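In 32 groups of 8 libraries (the 10 members and the 6 shares and ratios, in each genotype), 4 held a library that stood apart from the rest by more than Dixon's 95% critical value for 8 values, and chance alone gives about 1 in 20, or 5%. Acta1 was highest in WT library 3, at 190.2 FPKM, with the next WT library at 98.1 FPKM. The Acta1 share of sarcomeric actin was likewise highest in WT library 3, at 5.46%, with the next at 3.09%, and it rests on the same value of Acta1. Tmod1 was highest in TGAC8 library 1, at 85.02 FPKM, with the next at 74.8 FPKM. The log2 ratio of Tnnc1 to Tnnt2 was highest in TGAC8 library 4, at -1.43, with the next at -1.70. Without WT library 3 the Acta1 log2 fold change was -2.41 (limma adjusted p = 0.00577).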

How the results depend on the processing

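Of 250 alternative values of single members, 241 kept their side of the threshold, 6 lost the call, 3 gained one and 0 called values changed sign. Most of these came with another scale between libraries. With geometric scaling 0 members were higher in TGAC8 and 7 lower, and with quantile normalization 2 were lower (Acta1 and Tmod4) in place of 5 and the 1 higher was Actc1, not Tmod1. Without the 5 libraries with Myl7 above 10 FPKM, an alternative chosen after seeing the data, 0 members were higher. The relation of Acta1 to Actc1 in WT had r = 0.78 without 2 libraries (permutation p = 0.128). The causes were not tested. Of the 6 shares and ratios, 5 kept their side of the threshold in every alternative run. The Tpm2 share lost its call with quantile normalization (0.0184 points, exact permutation p = 0.496), also chosen after seeing the data for the shares. Leaving out each library gave 1 member higher and 5 lower in every case, Acta1 shares lower by -2.23 to -1.61 percentage points, Tmod4 shares by -7.93 to -7.36 points, and Tpm2 shares differing by 0.06 to 0.09 points.

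Library numbers are shared between the genotypes, but nothing in the labels says that they pair mice. The correlation of deviations between same-numbered libraries ran from -0.06 to 0.01, and 0 of 8 libraries in either genotype correlated best with its own number, so no pairing was used. With the number as a replicate block, 1 member was higher and 5 lower. The difference in the Acta1 share of -2.02 points then had an exact sign-flip p of 0.00781, that of Tmod4 of -7.61 points the same, the smallest 8 pairs allow, and the block changed the call of no member. Reads per gene are unknown, so the counting error of low members such as Tmod4 could not be given.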
